A study of Mus musculus with 12 samples.

Results

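Leukaemia cells named TCL1-192 were set against cells of young TCL1 mice, both taken from the peritoneal cavity, on 6 of the 12 arrays of the study. The arrays were chosen by their titles: 4 from TCL1-192 (2 of PtC+ and 2 of PtC- cells) and 2 from young TCL1 (1 of each class). PtC+ cells bind phosphatidylcholine and PtC- cells do not. The other arrays hold wild type peritoneal cells (1 PtC+, 1 PtC-) and TCL1-192 spleen cells (4), whose values are given beside some genes. All groups carry the same mixed C3H/C57BL/6 background, and all, wild type included, carry the label chronic lymphocytic leukaemia. The labels give the genotypes as TCL1-192, TCL1 and wild type. They name no promoter for the transgene, no age behind the word young, no number of mice per array and no meaning for 192. Nothing in them says that arrays of a group came from separate mice, so p-values measure the spread between these arrays, which may be technical. The study's title and design ask which expression patterns go with response to a self antigen and with progression to an aggressive TCL1 leukaemia.

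TCL1 is a co-activator of the kinase AKT, and mice that express it in B cells develop a leukaemia of CD5+ B cells that serves as a model of chronic lymphocytic leukaemia. Phosphatidylcholine is a membrane lipid that is exposed on dying cells and bacteria. B-1 cells, the self-renewing B cells that prevail in the mouse peritoneal cavity, include many clones whose antigen receptor binds it, often built from the heavy chain variable families VH11 and VH12. Antigen binding to that receptor passes through SYK, VAV and PLCγ proteins to the ERK, NF-kB and calcium pathways, and inhibitory receptors such as CD72 and FcγRIIb dampen it.

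On each array 10711 to 15192 of 45281 probes were detected over background (detection p-value under 0.05). The lowest number belongs to the TCL1-192 PtC- array 2, whose median signal was 219.2 against 99.4 to 115.9 on the other 5 arrays. Signal of undetected probes averaged 205.4 there and 93.1 to 109.9 on the other 5. Of 16 B cell markers tested, 0 were undetected on all 4 TCL1-192 arrays and 0 on both young arrays. Their median level was 11.56 to 12.47 on the TCL1-192 arrays and 12.38 and 12.37 on the young PtC+ and PtC- arrays in normalized log2 intensity, the scale of every level given here. None of the 16 passed the test, and 1 passed at an unadjusted p under 0.05 in the lower direction and 0 in the higher. None of the 6 probes for mouse Tcl1 or Tcl1b was detected on any of the 12 arrays, so these arrays hold no check of the transgene.

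Of 13190 genes tested, 653 (4.95%) differed between TCL1-192 and young TCL1 cells with PtC class as a term in the model (limma, adjusted p under 0.05). In TCL1-192 cells 269 genes (2.04%) were higher and 384 (2.91%) were lower. The smallest difference among the called genes was 1.12 on the log2 scale. At an unadjusted p under 0.05 the number was 2602. For each of the 653, both TCL1-192 arrays of a PtC class lay beyond the young array of that class in the direction of the call. Over all genes tested, 18.3% had every TCL1-192 array above the young array of its class and 20.7% had every one below. Among the higher genes 46 were undetected on both young arrays, as were 1435 of all 13190 genes. Among the lower genes 197 were undetected on all 4 TCL1-192 arrays, as were 1474 of all genes. Where detection on 4 of the 6 arrays was asked, 245 genes were higher and 149 lower. That filter drops every gene undetected on all 4 TCL1-192 arrays. Another scaling, by array medians in place of quantiles, gave 192 higher and 795 lower genes and moved the median of all genes by -0.25. The share of lower calls thus depends on the filter and on the scaling. Medians of 3 gene lists change sign with that scaling: inhibitory receptors (-0.25), cholesterol and fatty acid synthesis (-0.13) and ribosomal proteins (-0.04). Without the array with raised background the numbers were 297 higher and 377 lower. They fell to 38 higher and 113 lower without the young PtC- array, and to 145 and 220 without the young PtC+ array.

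Genes of the cell cycle gave the most rises among the gene lists. Of 32 mitosis and spindle genes tested, 12 rose and 0 fell, and all 32 lay above 0, with a median log2 difference of 2.04 against 0.01 over all genes. Of 31 genes of DNA replication and nucleotide synthesis, 10 rose and 0 fell, with a median of 1.29. By array, the median level of the mitosis list was 8.62, 8.65, 8.24 and 8.60 on TCL1-192 PtC+ 1, PtC+ 2, PtC- 1 and PtC- 2, the order of arrays used from here on. It was 7.46 on the young PtC+ array and 5.63 on the young PtC- array. Wild type arrays read 5.95 (PtC+) and 5.69 (PtC-). The young PtC+ array therefore lay between the TCL1-192 arrays and the other young and wild type arrays, and the young PtC- array lay close to both wild type arrays. The calls rest on that PtC- array: without it 0 of the 32 mitosis genes passed limma's adjusted p and 22 were higher at an unadjusted p under 0.05. Without TCL1-192 PtC+ 1 or PtC+ 2, 5 and 3 of the 32 passed, and without the array with raised background 12 passed.

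**Figure D1:**
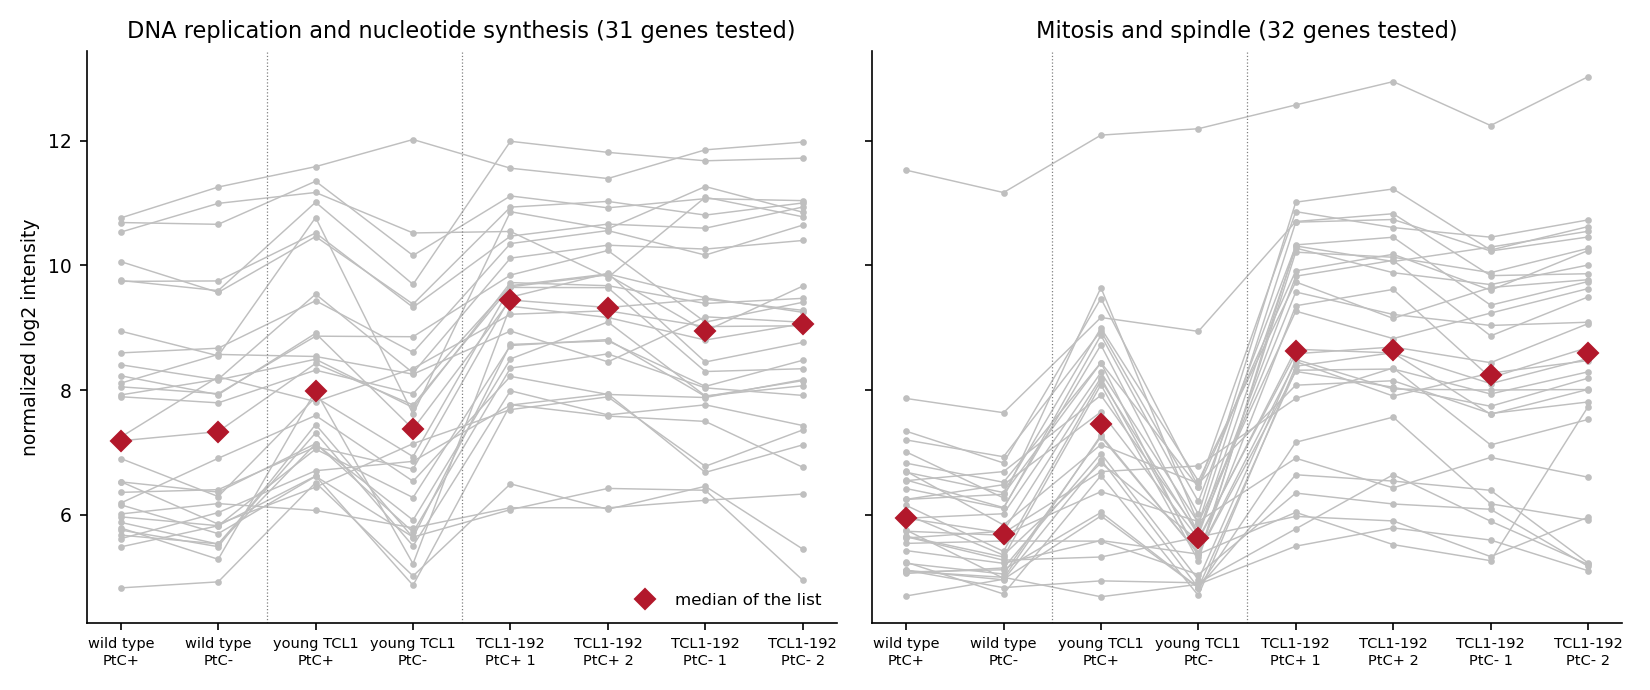
Normalized log2 intensity (y axis) of each gene of the DNA replication list (left, 31 genes) and the mitosis list (right, 32 genes) on the 8 peritoneal arrays (x axis); grey lines join the values of 1 gene and red diamonds mark the list's median. The mitosis median sits between 8.24 and 8.65 on the TCL1-192 arrays, at 7.46 on young PtC+ and at 5.63 on young PtC-.

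Birc5 encodes survivin, a subunit of the chromosomal passenger complex that also restrains cell death. It read 11.01, 11.23, 10.25 and 10.62 on the TCL1-192 arrays and 8.88 and 6.01 on the young PtC+ and PtC- arrays, a difference of 3.33 ± 0.49 (10.1-fold, adjusted p = 0.0154). All 4 TCL1-192 values lay above both young values, and the young PtC+ value was far above the young PtC- value. Pbk, a mitotic kinase, read 10.33, 10.45, 9.36 and 9.74 against 8.09 and 5.27 (3.29 ± 0.46, adjusted p = 0.0126). The kinesins Kif22, which moves chromosomes along the spindle, and Kif11, which pushes spindle poles apart, showed the same order. Kif22 read 10.21, 10.13, 9.88 and 10.27 against 8.44 and 5.32 (3.24 ± 0.63, adjusted p = 0.0372). Kif11 read 8.38, 8.60, 8.11 and 8.51 against 6.63 and 4.71 (2.73 ± 0.42, adjusted p = 0.0176). Pbk, Kif22 and Kif11 were each detected on 1 of the 2 young arrays. Cdc2a, now named Cdk1 and the kinase that drives entry into mitosis, and its partner Ccnb1 rose by 2.65 and 2.65 (adjusted p = 0.00647 and 0.0207). Among mitosis genes that did not pass, Nusap1 had a difference of 2.78 ± 0.70 (adjusted p = 0.0791) and Mki67, the gene of the proliferation antigen Ki-67, one of 1.48 ± 0.64 (adjusted p = 0.26); both read high on the young PtC+ array, at 9.64 and 8.20. Cdc2a, Nusap1 and Mki67 were picked with their values in view.

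Promoters of 4 mitosis genes are shown because these genes rose together, and many genes of late cell cycle phases are known to carry CCAAT boxes and a cell cycle homology region near their start. Each line gives the 250 bases before the start in RefSeq's GRCm38.p6, 5′ to 3′ on the gene's strand, with matches in capitals. The search used CCAAT for the box. For the homology region it used TTTGAA, then the variant TTCGAA, then the variant TTTGAG. Both strands were searched, so that ATTGG marks a box on the other strand. In the same way TTCAAA marks the first form of the homology region on the other strand. None of the capitals in these 4 promoters overlap.
Birc5, chr11:117848987-117849236, + strand: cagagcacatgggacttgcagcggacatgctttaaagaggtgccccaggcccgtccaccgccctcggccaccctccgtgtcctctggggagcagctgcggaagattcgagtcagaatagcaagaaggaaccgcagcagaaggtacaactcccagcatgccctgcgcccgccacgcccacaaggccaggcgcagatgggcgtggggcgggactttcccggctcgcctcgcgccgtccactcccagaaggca
Kif22, chr7:127042421-127042670, - strand: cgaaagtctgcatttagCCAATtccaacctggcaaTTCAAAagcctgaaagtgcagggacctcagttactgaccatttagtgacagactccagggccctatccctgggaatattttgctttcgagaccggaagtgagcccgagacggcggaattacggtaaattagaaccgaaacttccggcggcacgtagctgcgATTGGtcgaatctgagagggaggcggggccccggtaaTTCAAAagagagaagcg
Kif11, chr19:37376132-37376381, + strand: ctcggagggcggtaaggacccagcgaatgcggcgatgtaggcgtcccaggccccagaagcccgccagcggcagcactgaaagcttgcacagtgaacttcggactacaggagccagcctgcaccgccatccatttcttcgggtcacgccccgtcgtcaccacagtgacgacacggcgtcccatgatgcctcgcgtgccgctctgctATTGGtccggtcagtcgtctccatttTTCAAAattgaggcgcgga
Ccnb1, chr13:100786487-100786736, - strand: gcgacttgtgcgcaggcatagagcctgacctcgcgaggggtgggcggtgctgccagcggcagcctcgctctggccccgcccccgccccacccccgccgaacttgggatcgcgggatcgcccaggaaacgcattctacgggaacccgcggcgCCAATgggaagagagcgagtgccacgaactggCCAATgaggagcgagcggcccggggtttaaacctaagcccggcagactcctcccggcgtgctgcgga
Kif22 and Kif11 held both kinds of match, Ccnb1 held 2 CCAAT boxes, and Birc5 held none of these letters in the window. Of the 43 mitosis genes listed, tested or not, 34 had an entry. Of these 34, 76.5% had a CCAAT match, against 37.5% of all 27025 genes with an entry. A gene counted if any of its promoter entries matched, while the lines above show the first entry of each gene. A homology region match was found in 44.1% against 31.1%. The single forms differed in direction. The TTTGAA form was in 35.3% against 18.3%. For the first variant, TTCGAA, the shares were 5.88% and 1.55%. The second variant, TTTGAG, was in 8.82% of mitosis genes against 15.3% of all. A match is a description of the letters and was not tied to the measured difference by any test.

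Replication genes had a lower median difference than mitosis genes, though the difference between the lists was not tested. Tk1, the thymidine kinase of the salvage pathway, read 9.49, 9.88, 8.45 and 8.76 on the TCL1-192 arrays against 7.09 and 6.73 on the young arrays (2.23 ± 0.30, adjusted p = 0.0106). Both PtC+ leukaemia arrays were above both PtC- ones, and all 4 were above the young pair. Rrm2, the regulated subunit of ribonucleotide reductase, read 8.73, 8.79, 8.06 and 8.48 against 7.45 and 5.64 (1.97 ± 0.36, adjusted p = 0.0298). Gins2, a subunit of the replicative helicase, read 8.50, 9.09, 7.91 and 8.07 against 7.14 and 5.92 (1.87 ± 0.29, adjusted p = 0.0174). Mcm10, which helps to start replication forks, rose by 2.49 ± 0.53 (adjusted p = 0.0484) but lost its call without the array with raised background (2.26, adjusted p = 0.0569). Of the 31 replication genes 1 passed without TCL1-192 PtC+ 1 and 1 without PtC+ 2, and 0 passed without the young PtC- array, where 16 were higher at an unadjusted p under 0.05.

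Regulators of the step before replication changed singly. Ccnd1, cyclin D1, read 11.20, 10.72, 11.43 and 11.35 on the TCL1-192 arrays against 8.14 and 6.31 on the young arrays, a difference of 3.95 ± 0.51 (15.4-fold, adjusted p = 0.00944). Its 4 leukaemia values stood well above both young values, and wild type cells read 8.45 and 9.20, higher than the young ones. On the TCL1-192 spleen arrays Ccnd1 read 6.67 to 7.41, below every peritoneal leukaemia array. Cdkn1c, the cyclin-dependent kinase inhibitor p57, was undetected on all 4 TCL1-192 arrays and read 6.52 and 6.36 on the young arrays (at least 1.49-fold lower, adjusted p = 0.036). The other 19 of the 21 genes in that list did not pass. Of 27 MYC-related and ribosome biogenesis genes, Mxd3, a MAX-binding protein known from cells in S phase, alone passed. It was undetected on both young arrays and read 7.67, 7.68, 6.30 and 6.52 on the TCL1-192 arrays (at least 2.92-fold higher, adjusted p = 0.0157), with the PtC+ arrays above the PtC- arrays. The median of that list was 0.48 and 25 of 27 members lay above 0. No member of the lists for ribosomal proteins (44 tested, median 0.03), oxidative phosphorylation (25, median 0.18) or cholesterol and fatty acid synthesis (20, median 0.09) passed in either direction. At an unadjusted p under 0.05 those lists had 4, 4 and 2 higher members and 0 lower.

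Among genes of receptor signalling, a list of genes that the ERK pathway induces gave the most rises. Of its 11 tested members, called ERK feedback genes here, 4 rose and 0 fell, with a median of 0.59. The list holds inhibitors of the pathway, such as Spred1 and Dusp6, and also the transcription factors Etv5 and Etv4. Etv5, an ETS transcription factor and the largest rise of the comparison among genes that carry a name, read 10.27, 9.64, 10.95 and 10.37 on the TCL1-192 arrays. It read 5.20 and 4.93 on the young arrays, where it was undetected, so the difference was at least 28.1-fold (5.24 ± 0.36, adjusted p = 0.00115). Its relative Etv4 read 7.86, 7.85, 7.94 and 7.55 against 4.68 and 4.77, also undetected there (at least 4.95-fold, 3.08 ± 0.25, adjusted p = 0.00208). Both groups were tight and far apart, and the wild type arrays (4.99 and 5.61 for Etv5, 4.74 and 4.77 for Etv4) sat with the young ones. Spred1, a membrane inhibitor of RAS to RAF signalling, read 9.70, 9.78, 10.10 and 9.98 against 5.80 and 4.88 (4.55 ± 0.33, adjusted p = 0.00138) and was detected on 1 of the 2 young arrays. Dusp6, the phosphatase that removes the activating phosphates of ERK, read 11.86, 12.21, 11.94 and 11.998 against 8.40 and 7.65 (15.8-fold, 3.98 ± 0.28, adjusted p = 0.00127). TCL1-192 spleen arrays read 10.40 to 10.65 for Etv5, 7.40 to 8.33 for Etv4, 8.63 to 8.73 for Spred1 and 11.37 to 11.90 for Dusp6. The 4 genes kept their calls under every alternative tried, including each array left out in turn. The other 7 members did not pass: Dusp4 and Phlda1 were undetected on all 6 arrays at the brightest probe of each, the one tested, and Dusp1 and Dusp2 had differences of -0.18 and -0.36.

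**Figure D2:**
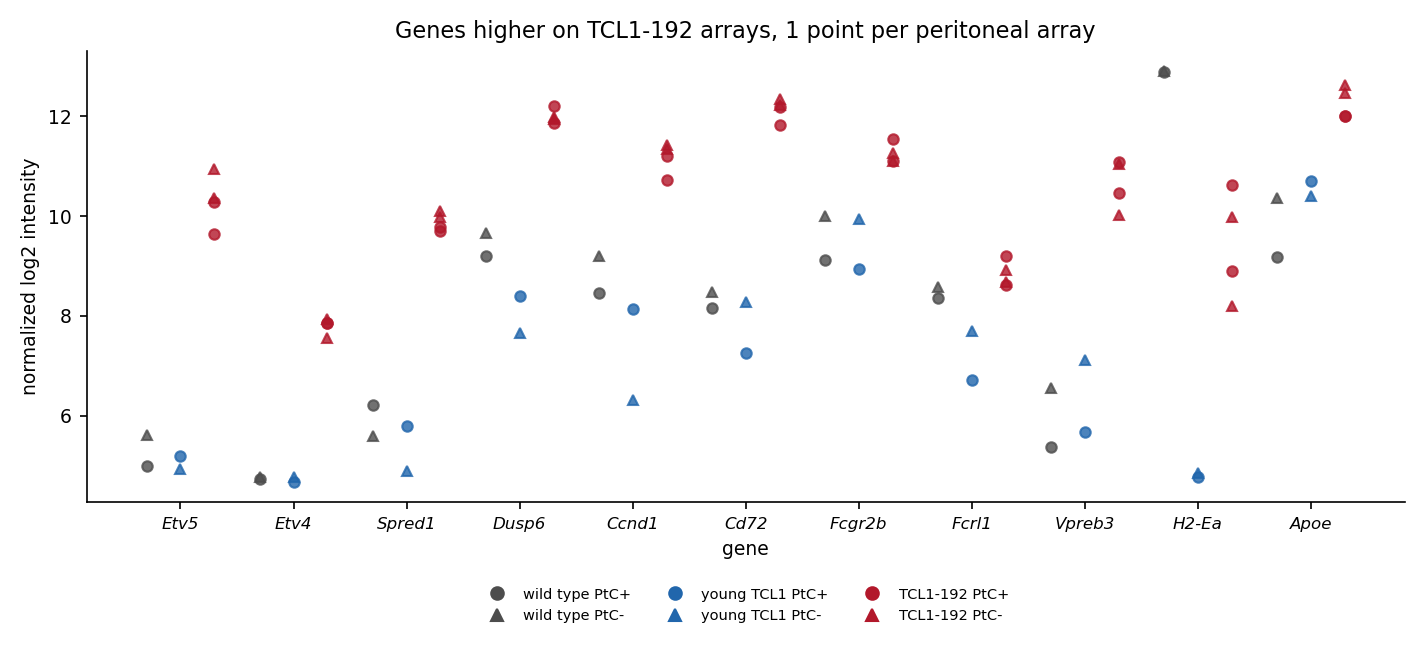
Normalized log2 intensity (y axis) of 11 genes (x axis) that rose in TCL1-192 cells, with 1 point per peritoneal array: grey wild type, blue young TCL1, red TCL1-192, circles PtC+ and triangles PtC-. The red points lie above both blue points in each gene; for H2-Ea the wild type points lie above the red ones.

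Inhibitory receptors of the B cell surface gave 3 rises and 1 fall among 21 genes, with a median of 0.02. The rises became 1 without either TCL1-192 PtC+ array or either young array. Cd72, a lectin-like receptor that recruits the phosphatase SHP-1, read 12.19, 11.83, 12.36 and 12.23 on the TCL1-192 arrays against 7.25 and 8.27 on the young arrays (21-fold, 4.39 ± 0.29, adjusted p = 0.0011). The 4 leukaemia values were close together and far above either young value, and wild type arrays read 8.15 and 8.49. Fcgr2b, the inhibitory Fc receptor, read 11.54, 11.12, 11.26 and 11.11 against 8.94 and 9.94 (1.82 ± 0.34, adjusted p = 0.0315). Fcrl1, an Fc receptor-like protein that in humans is known as a co-activator of B cells, read 9.21, 8.63, 8.91 and 8.67 against 6.72 and 7.70 (1.65 ± 0.35, adjusted p = 0.0476). Ctla4, best known from T cells and also found on B-1 cells, fell from 10.37 and 11.19 on the young arrays to 6.39, 6.89, 6.05 and 5.70 on the TCL1-192 arrays (23-fold, -4.52 ± 0.41, adjusted p = 0.00286). It was detected on 3 of the 4, and all 4 lay far below the young and the wild type (9.94 and 9.55) values. Of 28 B cell receptor signalling components 0 rose and 2 fell, with a median of -0.37 and 7 members above 0. At an unadjusted p under 0.05, 8 were lower and 1 higher, and in the fit to all 12 arrays 9 fell and 1 rose. The 2 falls became 1 without either TCL1-192 PtC+ array or young PtC+, and 0 without young PtC-, where 12 were lower and 0 higher at an unadjusted p under 0.05. Syk, the kinase that binds the activated receptor, read 7.65, 7.37, 7.80 and 7.14 against 8.93 and 8.92 (-1.43 ± 0.29, adjusted p = 0.0414). Vav3, an exchange factor for small GTPases, was undetected on all 4 TCL1-192 arrays and read 7.38 and 7.93 on the young arrays (at least 3.47-fold lower, adjusted p = 0.00983).

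Subunits and targets of NF-kB lay lower in TCL1-192 peritoneal cells. Of 23 tested, 5 fell and 0 rose, with a median of -0.93 and 3 members above 0. Ltb, lymphotoxin beta, read 8.71, 9.44, 9.71 and 10.41 on the TCL1-192 arrays against 12.29 and 12.80 on the young arrays (7.87-fold, -2.98 ± 0.34, adjusted p = 0.00619). Tnfaip3, the ubiquitin-editing inhibitor A20, was undetected on all 4 leukaemia arrays and read 7.55 and 7.73 on the young ones (at least 3.43-fold lower, adjusted p = 0.00601). Traf1, an adaptor of TNF receptors, read 6.95, 7.40, 7.59 and 7.35 against 9.44 and 8.997 (-1.90 ± 0.30, adjusted p = 0.0184). Birc3, an inhibitor of apoptosis, was near background and undetected on the leukaemia arrays (at least 1.19-fold lower, adjusted p = 0.0422), and its call was lost without the array with raised background (adjusted p = 0.056). Nfkbia, the inhibitor IkBα, fell, with a log2 difference of -1.22 ± 0.24 (adjusted p = 0.0391). Wild type cells stood with the young cells for Ltb (12.59 and 13.41), Tnfaip3 (8.23 and 7.67) and Traf1 (9.38 and 9.19). The list's median level was 7.35 to 7.66 on the peritoneal TCL1-192 arrays and 8.57 and 8.81 on the young arrays. On the TCL1-192 spleen arrays it was 8.63 to 8.92, near the young level. Those spleen arrays read 8.88 to 9.36 for Ltb, 6.89 to 7.35 for Tnfaip3 and 8.63 to 8.999 for Traf1. Falls numbered 2 without TCL1-192 PtC+ 1 or PtC+ 2 and 1 without young PtC+. With young PtC- left out 0 of the 23 passed limma's adjusted p, and 12 were lower and 0 higher at an unadjusted p under 0.05.

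Immediate-early and activation genes ran the same way as the NF-kB list, with which they share Tnfaip3 and Rel. Of 26 tested, 4 fell and 0 rose (median -0.88). On all 4 leukaemia arrays 7 of the 26 were undetected, against 1474 of all 13190 genes. These 7, Fosl2 and Tnfaip3 among them, entered the test through the other arrays. The filter thus shaped the counts and the median in part. Junb, an AP-1 subunit, read 8.81, 8.87, 8.95 and 8.70 against 10.32 and 10.45 (2.94-fold, -1.56 ± 0.24, adjusted p = 0.0184), with little spread in either group. Atf3, a stress-induced factor of the same family, read 6.004, 6.36, 5.67 and 4.95 against 7.62 and 7.67 (-1.90 ± 0.35, adjusted p = 0.0307) and was detected on 3 of the 4 leukaemia arrays. TCL1-192 spleen arrays lay above both young arrays for these 2 of the 4 falls, at 11.72 to 12.37 for Junb and 10.93 to 11.27 for Atf3. Fosl2 was undetected on the 4 leukaemia arrays and read 7.61 and 6.64 on the young arrays (at least 2.4-fold lower, adjusted p = 0.0258). The spleen arrays lay below both young arrays for Fosl2, at 5.36 to 6.42, and for Tnfaip3, the remaining fall, at 6.89 to 7.35. Egr1, picked with its values in view as the textbook immediate-early gene, read 7.73, 7.36, 7.93 and 7.05 against 10.25 and 8.66 and missed the threshold (-1.94 ± 0.44, adjusted p = 0.058). ERK feedback genes and immediate-early genes, which both respond to receptor signals, gave calls of opposite direction in the same cells; the difference between the lists was not tested. Of the 26, 1 passed without TCL1-192 PtC+ 1 and 1 without PtC+ 2, and 0 without either young array. With young PtC- left out, 12 were lower and 1 higher at an unadjusted p under 0.05, and with young PtC+ left out 6 were lower and 1 higher.

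Markers of B-1 cells were lower more often than higher: 3 fell and 1 rose of 24 tested (median -0.80, 3 members above 0). The rise was lost without either TCL1-192 PtC+ array or young PtC-, and the falls became 2 there and without young PtC+. Ctla4 is one of the 3. Anxa2, a membrane-binding annexin, read 10.74, 10.80, 10.67 and 10.63 against 13.71 and 12.85 (5.94-fold, -2.57 ± 0.27, adjusted p = 0.0052). Ahnak, a giant scaffold protein, fell, with a log2 difference of -1.85 ± 0.39 (adjusted p = 0.0459) and lost its call without the array with raised background (adjusted p = 0.0582). Spleen arrays of TCL1-192 read 11.29 to 11.86 for Anxa2 and 13.54 to 14.08 for Ahnak, above every peritoneal leukaemia array. Apoe, the lipid carrier apolipoprotein E, rose to 12.01, 12.0004, 12.64 and 12.46 from 10.72 and 10.40 (3.3-fold, 1.72 ± 0.29, adjusted p = 0.0233). On the TCL1-192 spleen arrays Apoe read 8.74 to 9.36, below both young arrays. Apoe is also a product of macrophages, whose markers are given further on. The part of macrophages in its rise was not tested. Of 18 follicular and marginal zone markers 1 fell and 1 rose. The latter, Hes1, a target of NOTCH, rose to 9.32, 9.15, 9.22 and 9.29 from 7.64 and 6.39 (2.23 ± 0.34, adjusted p = 0.017). Vpreb3, a pre-B cell protein that helps to assemble the antigen receptor, rose to 10.46, 11.10, 10.03 and 11.04 from 5.66 and 7.11 (19.3-fold, 4.27 ± 0.49, adjusted p = 0.00603). Wild type cells, at 5.38 and 6.55, sat with the young ones.

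Homing and survival genes gave falls and no rises. Pecam1, the adhesion molecule CD31, read 6.73, 6.64, 6.96 and 6.39 against 9.20 and 9.19 (-2.52 ± 0.27, adjusted p = 0.00537), detected on 3 of the 4 leukaemia arrays. It was 1 of 2 falls, with 0 rises, among 24 homing and adhesion genes (median -0.59). Cd27, a TNF receptor of activated and memory lymphocytes, was undetected on all 4 leukaemia arrays and read 8.96 and 10.19 on the young arrays (at least 13.1-fold lower, adjusted p = 0.00138). Wild type cells read 5.52 and 6.80, well under the young ones. Cd27 and Ltb were the 2 falls among 18 TNF family genes. Bcl2, the survival protein that is abundant in human chronic lymphocytic leukaemia, read 8.11, 8.45, 8.52 and 8.61 against 9.72 and 9.59 (-1.23 ± 0.26, adjusted p = 0.0473), but the second of its 2 probes had a difference of 0.60, and the call was lost without the array with raised background (adjusted p = 0.0511). Bcl2 and Ctla4 were the 2 falls among 12 mouse counterparts of human CLL markers, and Bcl2 and Birc3 the 2 falls among 24 genes of the BCL2 family and survival.

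Further single genes stood out by size. Pafah1b3, a subunit of an enzyme that breaks down platelet-activating factor, was undetected on the 4 leukaemia arrays and read 13.20 and 13.11 on the young arrays (at least 157-fold lower, -7.95 ± 0.26, adjusted p = 0.000215). The second of its 2 probes had a difference of -0.87. Serpina3g, a serine protease inhibitor of activated lymphocytes, was undetected on the 4 leukaemia arrays too and read 11.97 and 11.37 on the young arrays (at least 56.1-fold lower, adjusted p = 0.000507). Pglyrp1, a peptidoglycan recognition protein, read 10.44 and 10.87 on the young arrays and was undetected on the leukaemia arrays (at least 27.7-fold lower, adjusted p = 0.000507). Grb7, an SH2 adaptor, was detected on 2 of the 4 and read 5.71, 5.57, 5.97 and 5.44 against 11.73 and 10.98 (-5.68 ± 0.31, adjusted p = 0.000608). On the wild type arrays Pafah1b3 read 13.004 and 12.59, Serpina3g 12.31 and 12.23, Pglyrp1 10.41 and 10.42 and Grb7 9.54 and 9.13, so in each of the 4 genes all young and wild type values were above all TCL1-192 values. Spleen arrays of TCL1-192 read 4.85 to 5.26 for Pafah1b3, 4.65 to 5.04 for Serpina3g, 5.62 to 6.15 for Pglyrp1 and 7.12 to 7.92 for Grb7.

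**Figure D3:**
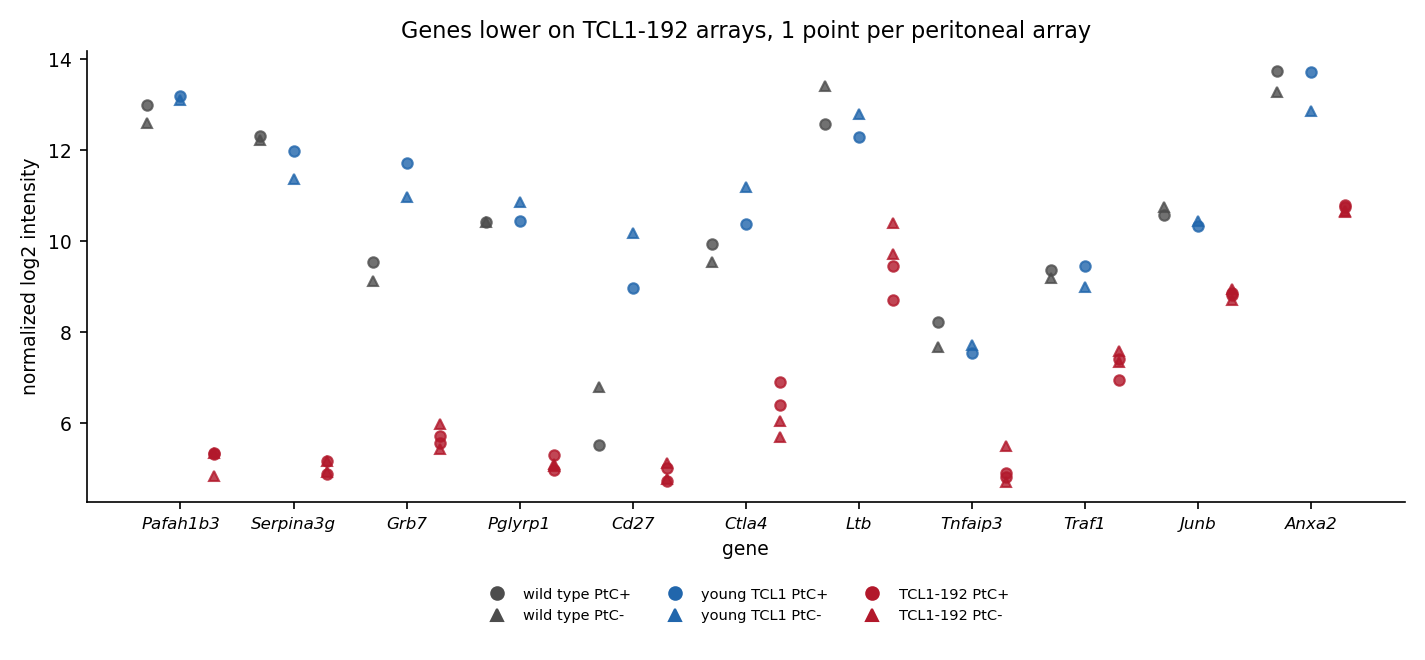
Normalized log2 intensity (y axis) of 11 genes (x axis) that fell in TCL1-192 cells, with 1 point per peritoneal array: grey wild type, blue young TCL1, red TCL1-192, circles PtC+ and triangles PtC-. In each gene the 4 red points lie below both blue points; Pafah1b3 drops from 13.11 and 13.20 on the young arrays to between 4.84 and 5.33.

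Metabolic and stress genes gave scattered calls. Ddit4, an inhibitor of mTORC1 that hypoxia and stress induce, read 10.44, 10.92, 10.43 and 10.54 against 9.01 and 9.05 (1.55 ± 0.26, adjusted p = 0.024). Wild type arrays read 10.59 and 10.72 for Ddit4, near the TCL1-192 level. The TCL1-192 spleen arrays read 8.05 to 8.47, below both young arrays. Ddit4 was the 1 rise, beside 1 fall, among 25 genes of the PI3K and AKT pathway (median -0.48). Adm, the hypoxia-induced peptide adrenomedullin, read 5.35, 6.28, 5.69 and 5.36 against 8.998 and 8.31 (-2.98 ± 0.34, adjusted p = 0.00603; detected on 2 of 4 leukaemia arrays), and with Ddit4 made up the calls among 22 genes of glycolysis and hypoxia. Hspb1, a small heat shock protein, rose to 9.87, 9.46, 10.52 and 9.98 from 6.51 and 5.84 (13.8-fold, 3.79 ± 0.37, adjusted p = 0.00371), while Asns, asparagine synthetase, was undetected on the leukaemia arrays and read 8.87 and 6.91 on the young ones (at least 4.08-fold lower, adjusted p = 0.0138). Of 22 interferon-stimulated genes Oasl2 (at least 1.83-fold lower, adjusted p = 0.0184) and Gbp2 (-1.35 ± 0.28, adjusted p = 0.0458) fell. The latter lost its call without the array with raised background. Zfp288, now Zbtb20, a zinc finger factor, was the 1 fall among 24 B lineage transcription factors (at least 2.26-fold, adjusted p = 0.0104). None of 19 genes of Toll-like receptors and their pathway passed (1 higher and 2 lower at an unadjusted p under 0.05), nor did any of 17 plasma cell and secretory genes (3 higher and 2 lower).

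**Figure D4:**
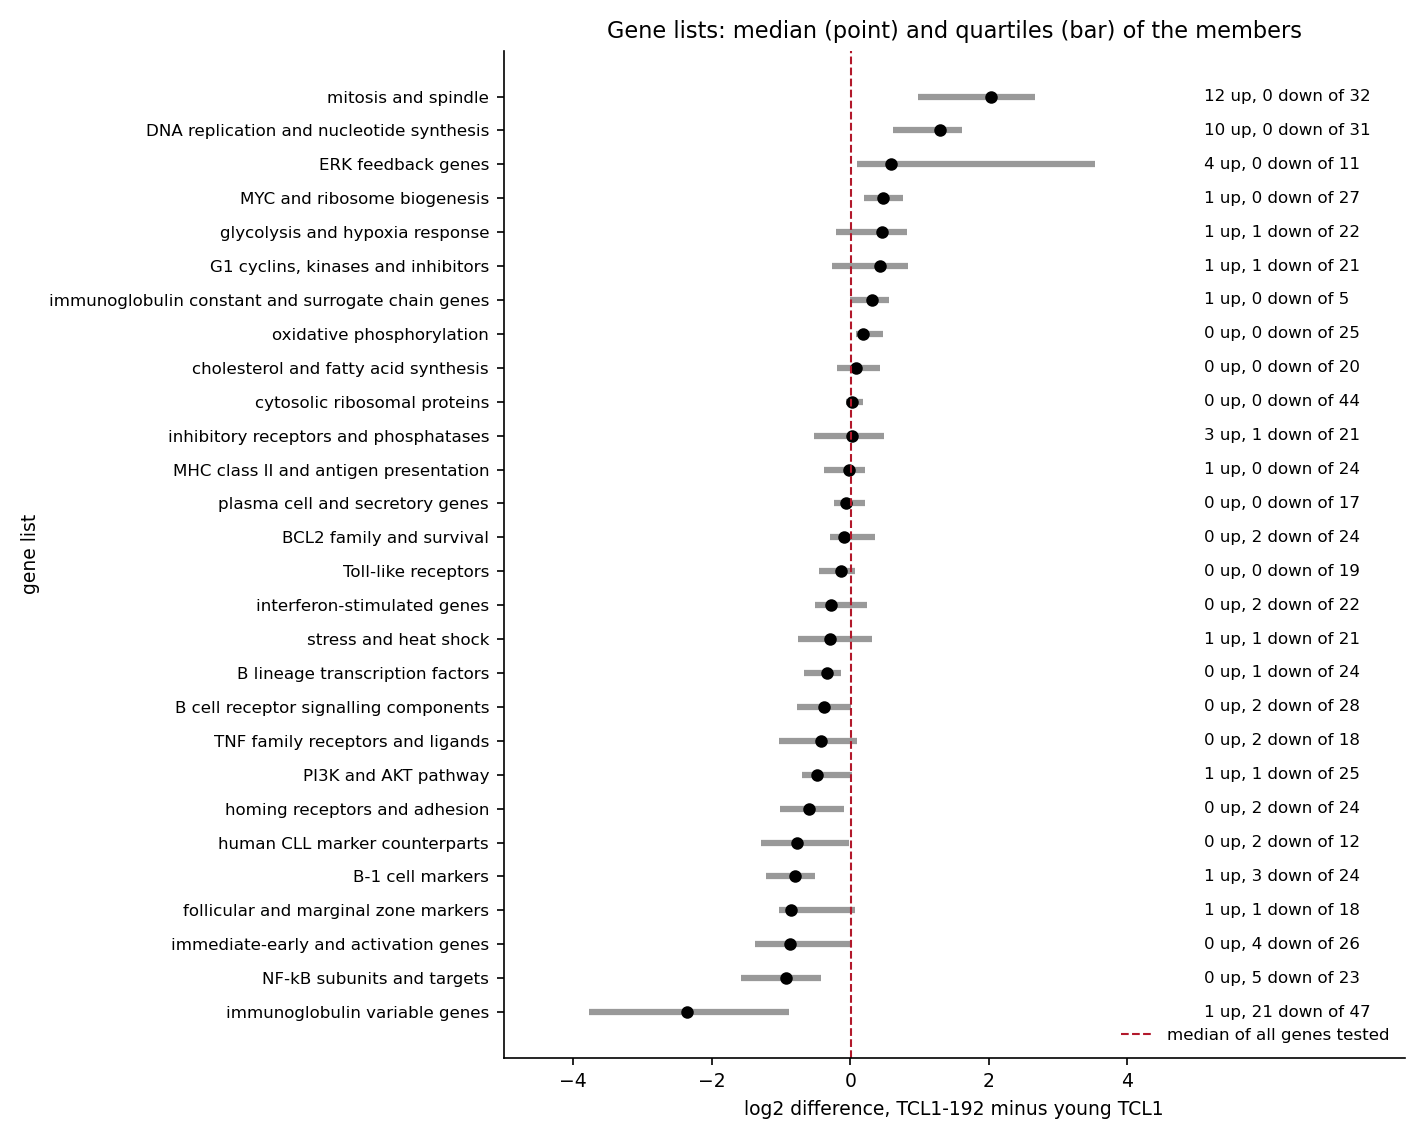
Median (black point) and quartiles (grey bar) of the log2 difference, TCL1-192 minus young TCL1 (x axis), over the tested members of 27 pathway lists and the immunoglobulin variable genes (y axis; cell type lists are not drawn), with the number called in each direction of the number tested at the right. Among the lists drawn, mitosis has the highest median, 2.04, and immunoglobulin variable genes the lowest, -2.35; the dashed line marks the median of all genes tested, 0.01.

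Immunoglobulin variable genes, are the segments that give each B cell clone its receptor. Of 47 symbols tested 36 were undetected on all 4 TCL1-192 arrays, so these 36 entered the test through the other arrays, and the counts and the median describe a set that the filter shaped. With that said, 21 fell and 1 rose, with a median of -2.35. Where detection on 4 of the 6 arrays was asked, 10 were tested, of which 2 fell and 1 rose. Leaving out 1 array gave 12 falls (without young PtC-) to 32 (without young PtC+), and 14 without either TCL1-192 PtC+ array. The median level of the class was 4.87, 4.96, 4.93 and 4.94 on the TCL1-192 arrays, near the floor of the arrays. It was 6.61 on the young PtC+ array and 9.78 on the young PtC- array, and the wild type arrays read 6.22 for PtC+ and 9.19 for PtC-. Split by chain, 20 of 25 heavy chain and 16 of 21 kappa chain genes were undetected on all 4 leukaemia arrays; 9 and 12 fell, and 1 and 0 rose. Probes of near-identical variable genes may share signal, so a reading for 1 symbol can hold its family members.

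The variable genes with the largest falls included one that was among the brightest of the PtC+ cells. IGKV4-91 read 15.18 and 12.41 on the young PtC+ and PtC- arrays and 14.89 and 11.57 on the wild type ones, and was undetected on all 4 TCL1-192 arrays (4.91, 4.72, 4.90 and 4.91). The difference was at least 244-fold (-8.94 ± 0.60, adjusted p = 0.00113). Igk-V5 was detected on 1 of the 4 leukaemia arrays and read 6.05, 5.19, 5.53 and 4.83 against 11.04 and 14.04 (-7.14 ± 0.75, adjusted p = 0.00477), with the young PtC- array above the young PtC+ one. IGKV3-2 (at least 34.2-fold, adjusted p = 0.014) and IGKV9-120 (at least 29.9-fold, adjusted p = 0.000608) were likewise undetected on the leukaemia arrays. Among heavy chains IGHV1S35, IGHV1S120, IGHV1S119 and IGHV1S36 fell, with log2 differences of -4.76, -4.68, -4.26 and -4.06 (adjusted p = 0.0122, 0.011, 0.0296 and 0.0182). On the young arrays each of these 4 was brighter in PtC- than in PtC+ cells.

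A total of 6 variable genes stayed detected on all 4 TCL1-192 arrays, a set picked with its values in view. Igh-V11, a heavy chain gene of the VH11 family, read 13.93, 14.01, 14.65 and 14.84 on the TCL1-192 arrays and 13.47 and 12.58 on the young arrays, and did not pass the test (1.33 ± 0.40, adjusted p = 0.125). IGKV9-128 read 15.12, 15.04, 15.05 and 15.20 against 14.22 and 13.90 (1.05 ± 0.25, adjusted p = 0.0673), so it also missed the threshold. Both lay high on all 4 leukaemia arrays. IGHV12S1, of the VH12 family, read 11.87, 11.71, 12.34 and 12.55 against 12.63 and 10.99 (0.31 ± 0.50, adjusted p = 0.784). Its young value was higher in PtC+ than in PtC- cells, while both leukaemia PtC- arrays read above both PtC+ ones. Igh-VS107, a VH7 family gene, was the 1 variable gene that rose, at 11.67, 11.14, 12.37 and 11.76 against 8.23 and 9.78 (6.62-fold, 2.73 ± 0.35, adjusted p = 0.00914). Igl-V1, of the lambda light chain, read 14.67 to 14.98 and 14.76 and 15.04, and IGKV2-137 read 8.42 to 9.54 and 9.82 and 10.96; neither passed. Igh-6, the constant region of IgM, read 14.80, 14.73, 15.06 and 15.28 against 15.24 and 15.23 (-0.27 ± 0.25, adjusted p = 0.614).

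**Figure D5:**
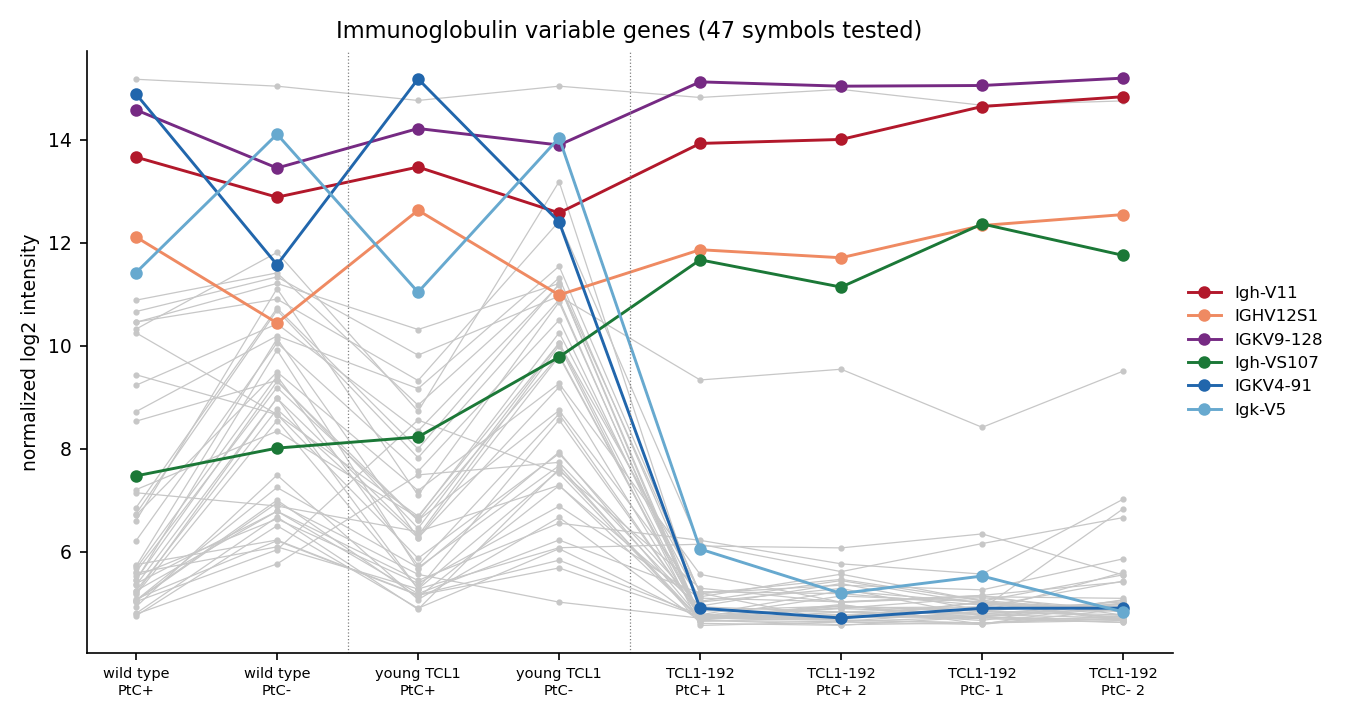
Normalized log2 intensity (y axis) of 47 immunoglobulin variable genes on the 8 peritoneal arrays (x axis); each line joins 1 symbol and 6 are coloured. On the TCL1-192 arrays most lines lie near 5, while Igh-V11, IGKV9-128, IGHV12S1 and Igh-VS107 lie between 11.14 and 15.20; IGKV4-91 falls from 15.18 on young PtC+ to under 5.

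A list of MHC class II and other antigen presentation genes, class I genes included, gave 1 call among 24. H2-Ea, the α chain of the class II molecule I-E, was undetected on both young arrays (4.76 and 4.84) and read 8.89, 10.63, 8.21 and 9.98 on the TCL1-192 arrays (at least 15.3-fold higher, 4.62 ± 0.64, adjusted p = 0.0129). The wild type arrays read 12.90 and 12.91, above every TCL1-192 array. TCL1-192 spleen arrays read 5.33 to 6.20, detected on 2 of 4 and below every peritoneal TCL1-192 array. C57BL/6 mice are known to lack a functional H2-Ea gene and C3H mice to have one; the part of the strain mix at this locus was not tested. H2-Aa and H2-Ab1, the chains of I-A, had differences of -0.24 and -0.03.

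Sex-linked genes separated the groups. Xist, the RNA that silences 1 X chromosome in females, read 8.37, 8.07, 8.60 and 8.17 on the TCL1-192 arrays and was undetected on the young arrays (5.08 and 5.04, adjusted p = 0.00208). The Y-linked genes Eif2s3y, Ddx3y and Jarid1d (now Kdm5d) were high on the young arrays and lower on the leukaemia arrays. Eif2s3y read 4.76, 4.75, 4.74 and 4.77 against 10.27 and 11.19 (adjusted p = 0.000507), Ddx3y 6.74, 6.58, 6.27 and 7.41 against 10.44 and 11.40 (adjusted p = 0.00305) and Jarid1d 4.90, 4.99, 4.82 and 5.02 against 7.67 and 8.04 (adjusted p = 0.00234). Uty did not pass the test (-0.24 ± 0.32, adjusted p = 0.732). The wild type arrays read with the young ones, at 5.12 and 4.91 for Xist, undetected, and 10.71 and 10.37 for Eif2s3y. On the TCL1-192 spleen arrays Xist read 8.91 to 10.48. Sex and leukaemia state cannot be told apart in any gene of this comparison. Wild type values set beside a gene do not separate them either.

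Marker genes of other cell types moved with the groups in part. Of 6 erythroid genes 4 rose, with Hbb-b1 at 14.41, 13.79, 13.81 and 13.59 on the TCL1-192 arrays against 7.83 and 10.59 on the young arrays (4.69 ± 0.67, adjusted p = 0.0138) and Hba-a1 at 13.49, 12.36, 12.85 and 13.14 against 7.43 and 9.87 (adjusted p = 0.0113). The other calls were Hbb-b2 (2.97) and Alas2, the haem synthesis enzyme of red cell precursors (1.402, detected on 3 of 4 leukaemia arrays). Rises numbered 2 without TCL1-192 PtC+ 2 or young PtC-, and 1 without young PtC+ or with no filter on dim probes. Their summed intensity was 20235 to 34070 on the TCL1-192 arrays, 647.0 on young PtC+ and 2745 on young PtC-, while Klf1, a red cell transcription factor, did not pass (0.14). In bulk samples such as these, fewer cells of a type and less RNA per cell cannot be told apart.

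Of 9 mast cell and basophil genes 4 fell and 0 rose. On all 4 leukaemia arrays 7 of the 9 were undetected, so they entered the test through the other arrays. Detection on 4 of the 6 arrays left 1 of the 9, which did not pass, and falls ranged from 0 to 6 over the settings that use all arrays. Mcpt4, Cpa3, Cma1 and Mcpt6 (now Tpsb2), all proteases of mast cell granules, were undetected on the 4 leukaemia arrays. Cpa3 read 9.23 and 9.14 on the young arrays (at least 10-fold lower, adjusted p = 0.000917) and Mcpt4 read 8.84 and 9.25 (at least 9.1-fold lower, adjusted p = 0.000764). Cma1 fell at least 5.62-fold and Mcpt6 at least 2.02-fold (adjusted p = 0.00113 and 0.00619). The summed intensity of the list was 120 to 195 on the TCL1-192 arrays against 1594 and 1820 on the young ones. Of 22 macrophage genes, Arg1, arginase, rose to 9.71, 9.80, 9.83 and 9.72 from 7.01 and 7.07 (6.6-fold, adjusted p = 0.00244). Mpeg1, a pore-forming protein of macrophages, fell, with a log2 difference of -1.49 ± 0.29 (adjusted p = 0.0391), though its second probe had a difference of 0.25. Summed macrophage intensity was 15020 to 25237 on the TCL1-192 arrays, 28122 on young PtC+ and 22909 on young PtC-. On the TCL1-192 spleen arrays the sum was 1821 to 2162.

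T cell genes gave 2 falls among 11. Cd3g, a chain of the T cell receptor complex, read 5.97, 5.85, 5.50 and 5.13 against 7.48 and 9.01 (-2.63 ± 0.48, adjusted p = 0.0296; detected on 2 of 4 leukaemia arrays), and Il7r fell at least 1.74-fold (adjusted p = 0.0456) and lost its call without the array with raised background. Cd3e was undetected on the 4 leukaemia arrays. Sparc and Dcn, extracellular matrix proteins, rose among 5 mesothelial and stromal genes, and 0 fell. At an unadjusted p under 0.05, 3 of the 5 were higher and 2 lower. On the TCL1-192 spleen arrays Sparc read 11.87 to 12.34, while Dcn was undetected at 4.62 to 4.85. Sparc read 11.30, 11.01, 11.29 and 11.21 against 8.25 and 6.48 (14.3-fold, adjusted p = 0.00603) and Dcn read 7.10, 8.47, 7.48 and 8.46 against 5.31 and 5.33 (at least 5.21-fold, adjusted p = 0.0292). The defining genes of that list, Col1a1, Col3a1 and Upk3b, were undetected on all 6 arrays. Cxcl4 (now Pf4), a platelet chemokine, fell to 7.20, 8.21, 7.29 and 8.26 from 10.33 and 10.45 (-2.64 ± 0.40, adjusted p = 0.017). It was the 1 call among 4 platelet and megakaryocyte genes, of which 3 lay above 0 (median 0.22). Prtn3, a neutrophil protease, was undetected on the leukaemia arrays (at least 1.36-fold lower, adjusted p = 0.0333) while S100a8 and S100a9 were undetected on all 6. Neither the NK cell list nor the dendritic cell list had a call (3 and 5 genes tested, with 1 and 2 at an unadjusted p under 0.05). The part of these cells in the results on B cell genes was not tested.

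A second question was whether the difference between leukaemia and young cells depended on PtC class. For it 1 mean per group was fitted to all 12 arrays, which assumes that the lone young arrays vary like the other groups. Averaged over both classes that fit called 2594 genes (19.7%), 1047 higher (7.94%) and 1547 lower (11.7%), all 653 among them. In PtC+ cells 2117 genes (16.1%) differed, 886 (6.72%) higher and 1231 (9.33%) lower in TCL1-192 cells. In PtC- cells 1472 (11.2%) differed, 623 (4.72%) higher and 849 (6.44%) lower. Scaling by array medians gave 192 higher and 766 lower for PtC+, and 187 and 1007 for PtC-, with the median of all genes at -0.12 and -0.44. The test of the difference between the classes called 157 genes (1.19%), with 95 (0.72%) more positive in PtC+ and 62 (0.47%) more positive in PtC- cells. Median scaling gave 72 and 20, with the median of all genes at 0.21. A fit to the 6 arrays alone called 0 by limma's adjusted p, with 1734 genes at an unadjusted p under 0.05. The 12-array fit called 1062 once the array with raised background was left out, so the count depended on the fit.

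Variable genes made up a visible share of these 157: 21 of 47 tested had a more positive difference in PtC+ cells and 1 in PtC- cells. Of the 47, 36 were undetected on all 4 TCL1-192 arrays and entered the test through other arrays, so the filter shaped this count too. For those 36 the test mainly sets 1 young array against the other. IGKV3-2 gave 4.37 ± 0.30 (adjusted p = 0.00647) and IGHV8S6 3.91 ± 0.34 (adjusted p = 0.00647); both were undetected on all TCL1-192 arrays and higher on young PtC- than on young PtC+. Read as levels, young IGHV8S6 was 6.67 in PtC+ and 10.25 in PtC- cells. The exception was IGKV4-91 (-2.87 ± 0.30, adjusted p = 0.00913), which was brighter on the young PtC+ array. Of the mitosis list 6 genes had a less positive difference in PtC+ than in PtC- cells and 0 a more positive one, among them Kif22 (-3.02 ± 0.42, adjusted p = 0.0246). The list's median difference was 1.27 in PtC+ and 3.05 in PtC- cells, with 19 and 22 of 32 called.

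Genes of other cells were among the largest here as well. Fn1, fibronectin, read 6.10, 6.28, 8.01 and 6.998 on the TCL1-192 arrays and 10.46 and 5.61 on the young PtC+ and PtC- arrays (-6.17 ± 0.55, adjusted p = 0.00647). Prg4, a lubricating proteoglycan, and Ecm1, an extracellular matrix protein, showed the same high young PtC+ value, at 11.32 and 10.43 against 7.69 and 7.12 on young PtC- (-4.53 ± 0.46 and -4.24 ± 0.65, adjusted p = 0.0074 and 0.0371). On the wild type arrays Fn1 read 10.75 and 11.69, high in both classes. Cd3d, a T cell receptor chain, read 5.65 and 9.001 on the young arrays and 6.46, 7.33, 5.82 and 6.42 on the leukaemia arrays (4.12 ± 0.58, adjusted p = 0.0273). The median level of the macrophage list was 9.45 on young PtC+ and 7.13 on young PtC-, and that of the NK cell list 4.98 and 7.76. The 2 young arrays thus differed in markers of other cells, and the part of those cells in the interaction was not tested.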

How the data were processed

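RNA was extracted with Trizol, cleaned on RNeasy columns with DNase, and turned into biotin-labelled cRNA (Ambion MessageAmp) for Illumina arrays, per the labels' protocols. The deposited non-normalized table holds a signal intensity for 45281 probes on each of 12 arrays. Per the file headers it also holds a detection p-value per probe. The authors' second deposited table holds intensity values with near-equal medians on all arrays (119.2 to 119.3), with no tool named in the labels or headers. Starting from the first table, limma 3.58.1 in R 4.3.3 corrected background with neqc (offset 16), quantile normalized over the 12 arrays and took log2. Probes with a detection p-value under 0.05 on at least 2 arrays were kept (18100), and each of 13190 symbols was represented by its brightest probe; 3479 had more than 1. RefSeq's table held 8104 of the symbols, a synonym matched 2586 more, and 2500 had no match.

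The difference TCL1-192 minus young TCL1 was fitted by limma to 6 arrays with PtC class as an additive term, as two-sided tests with Benjamini-Hochberg adjustment over all genes and a threshold of 0.05. Errors with ± are standard errors of log2 differences. The median standard error was 0.32. The model had 3 residual and 3.81 prior degrees of freedom. Differences within a PtC class and between the classes came from a fit of 1 mean per group to all 12 arrays. A fold written with "at least" belongs to a gene that no array of the dimmer group detected; that group then takes, array by array, the lowest signal any detected probe had or the probe's own signal if that was higher. The scripts were tested on simulated data.

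The genes named are the 10 largest rises and falls with an established name, up to 4 called members of each of 37 gene lists (27 of pathways, 10 of cell types) and of the immunoglobulin variable genes, the 3 largest on each side of the test between PtC classes, and sex-linked genes. The members and lists were chosen with earlier results of these data known. Deviations of same-numbered TCL1-192 arrays correlated at 0.05 to 0.26 between groups, and no label says what the number shares, so no block entered the model. The number of arrays limits the precision. Gene symbols are those of the array. Cd79a and Cd5 were not analysed here, and some genes that the rule names are not reported here. No genome was used beyond RefSeq's promoter table.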

Additional observations from a re-analysis of the deposited data

Results flagged for a closer look

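A gap test over the 4 TCL1-192 arrays, which chance passes in about 1 in 20 groups, singled out the PtC- array 2 in 3 measures of quality. It had 10711 probes detected, a median signal of 219.2 and a mean signal of 205.4 over undetected probes. The same array was apart in Pafah1b3 (4.84), and the PtC+ array 2 in IGKV4-91 (4.72). Both readings are of undetected probes.

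The test of the difference between PtC classes called 157 genes. Among the genes named, a positive value means a more positive difference in PtC+ cells. It was 4.12 for Cd3d, 3.16 for Hbb-b1, 4.37 for IGKV3-2 and 3.91 for IGHV8S6. For the heavy chain genes it was 3.84 for IGHV1S119, 3.02 for IGHV1S120, 3.17 for IGHV1S35 and 3.004 for IGHV1S36. Negative values were -6.17 for Fn1, -4.53 for Prg4, -4.24 for Ecm1, -3.02 for Kif22 and -2.87 for IGKV4-91. Each rests on 1 young array per class.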

How the results depend on the processing

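The count of 653 genes was 2594 with all 12 arrays fitted as group means (1047 higher, 1547 lower, all 653 included), 1096 with the replicate block as a random effect (correlation -0.22), 409 with array weights (which came out near degenerate, from 0.35 to 29.7), 987 with median centring, 394 among genes detected on 4 of the 6 arrays (9613 tested) and 430 with no filter on dim probes (30789 tested). Leaving out 1 array gave 151 to 674 genes. For PtC+ cells 2117 became 151 in the 6 arrays alone and 958 with median centring, with 550 to 3731 when 1 array was left out. For PtC- cells 1472 became 365 in the 6 arrays alone, with 1115 to 4385 when 1 array was left out. For the difference between classes 157 became 0 in the 6 arrays alone (1734 at an unadjusted p under 0.05), 1362 with the replicate block, 1414 with an intensity trend, 92 with median centring, 1395 in the authors' table and 287 with no filter, with 49 to 2521 when 1 array was left out. The cause of these moves was not tested beyond the number of genes or arrays each setting uses. No label says what same-numbered arrays share. In the 12-array fit, which gave the 1362 genes, the block's correlation was 0.29. In the 6-array fit the block changed no call among the 78 named genes that were called. Of these 78, 24 held under every alternative, 41 under every alternative that uses all arrays, and 71 without the array with raised background, while 34 held without the young PtC- array. None changed direction. With all arrays used, calls ranged from 4 to 24 in the mitosis list, from 4 to 20 in the replication list and were 4 in every setting for ERK feedback. Falls among variable genes ranged from 2 to 38, with 2 where detection on 4 of 6 arrays removed those undetected on the leukaemia arrays. The raised background of 1 array limits the detection of dim genes there.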
